A study of Heterocephalus glaber with 3 samples.

Results

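Integrins and cadherins were described across the cell lineages of lung tumours from 3 naked mole-rats (Heterocephalus glaber). The rule takes genes by their names: every symbol of the feature list that reads ITGA or ITGB with its letter or number, or CDH with its number. This gave 30 genes, made up of 15 integrin alpha chains, 6 integrin beta chains and 9 cadherins, of 23189 features in all and 11578 features with a symbol. The family members ITGB1, ITGB3, ITGAX, ITGA8, CDH2, CDH5 and CDH11 carry no symbol in the list and are not analysed here, nor is 1 further alpha chain. The common beta chain ITGB1 is therefore missing from every statement below.

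Integrins are receptors made of 1 alpha and 1 beta chain that attach cells to the extracellular matrix or to other cells. The pair chosen decides the ligand: alpha-6/beta-4 binds laminin in hemidesmosomes, the beta-2 pairs carry leukocytes through vessel walls, and alpha-V pairs read the RGD motif of fibronectin and of latent TGF-beta. Cadherins join like cells through calcium-dependent contacts, and the E-cadherin CDH1 holds epithelial sheets together. In the lung, loss of CDH1 and gain of mesenchymal adhesion genes is a classical sign of epithelial-mesenchymal change, and the comparisons below ask which lineage carries which adhesion gene.

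Each animal gave 1 single-cell library of its tumours, and the 3 animals form 1 group, replicates 1 to 3. All 3 had been infected with an adenovirus carrying CRISPR reagents for several oncogenic edits, among them an inversion joining Eml4 with Alk and a loss of Rb, and lungs were taken 15 weeks later. Tumours were cut out of the surrounding lung by hand, and no label says which cells carry the edits. No uninfected animal is in the labels, so every comparison is between cell types of the same animals.

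The libraries held 76093932 to 91949365 UMIs (unique transcript counts) over 9500 to 10000 barcodes, and 24599 cells passed the filters. Clustering without the integrin and cadherin genes gave 29 clusters. Markers placed 25 of them in a lineage, of which 9 lineages had at least 10 cells in every animal. These were epithelial-like (641 cells), endothelial-like (199), fibroblast or mural-like (2956), monocyte or macrophage-like (6142), dendritic-like (1231), neutrophil-like (1609), T or NK-like (5310), B-like (1319) and plasma-like (2387) cells. Pairs of libraries shared 21 to 31 barcodes, 0 of them with equal UMI totals. Levels are CPM, the counts of a gene scaled to the same total, of the summed UMIs of a lineage in 1 animal, and mean ± SD is over 3 animals. Differences are log2 contrasts of 1 lineage against the equally weighted mean of the other 8 (edgeR quasi-likelihood test, animal as block), called at an adjusted p (Benjamini-Hochberg) under 0.05. Clusters and tests came from the same cells, so these p-values order the genes and are not error rates. Levels are compared between lineages for 1 gene and not between genes. In plasma cells a plain CPM understates most genes, for a reason given below.

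**Figure D1:**
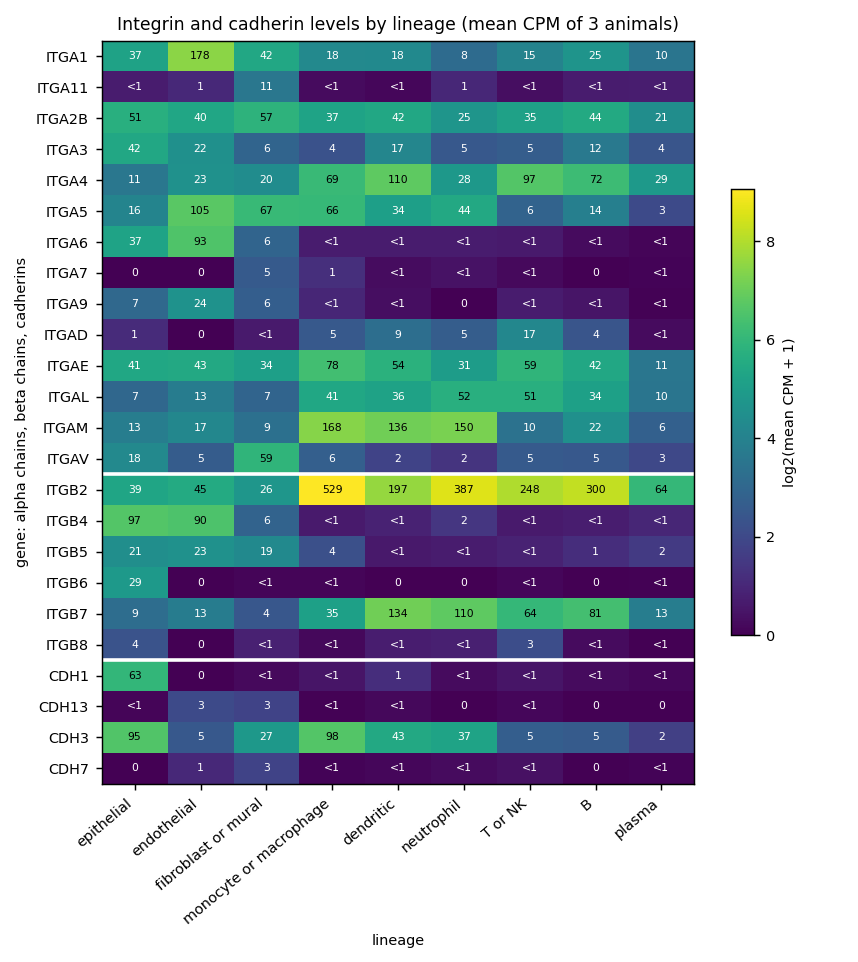
Mean level of the 24 genes with at least 100 UMIs (rows) in the 9 lineages (columns), coloured by log2(mean CPM + 1) with the mean CPM of 3 animals written in each cell; values under 1 CPM are written <1. Read along a row: CDH1 and ITGB6 stand in epithelial cells, ITGA1 is highest in endothelial cells, ITGAV in fibroblast or mural cells, and ITGB2 in monocytes or macrophages.

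The beta-2 chain ITGB2, the shared partner of the leukocyte alpha chains, was at 513, 601 and 474 CPM in monocytes or macrophages of replicates 1, 2 and 3. Neutrophils followed at 395, 384 and 382 CPM, and these 2 lineages did not overlap with each other or with any other. B cells (287 to 310 CPM), T or NK cells (198 to 299 CPM) and dendritic cells (176 to 236 CPM) overlapped in part. Epithelial cells were at 30.5 to 49.3 CPM, endothelial cells at 22.1 to 86.6 CPM and fibroblast or mural cells at 16.4 to 39.6 CPM. The log2 difference was 2.25 ± 0.13 (SE) in monocytes or macrophages (edgeR adjusted p = 2.97e-13) and -2.96 ± 0.21 in fibroblast or mural cells (edgeR adjusted p = 3.2e-12).

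ITGAM, which with ITGB2 forms the complement receptor Mac-1, had 3 high lineages. Monocytes or macrophages were at 170, 210 and 123 CPM, neutrophils at 180, 133 and 136 CPM and dendritic cells at 139, 165 and 103 CPM. These 3 overlapped among themselves, and every other lineage stayed at or under 31.3 CPM in every animal. The log2 differences were 2.86 ± 0.12, 2.94 ± 0.14 and 2.36 ± 0.13 (SE), with edgeR adjusted p of 1.61e-16, 2.01e-15 and 7.47e-14. Mac-1 is a textbook marker of myeloid cells, and B cells (14.1 to 31.3 CPM) and T or NK cells (8.31 to 11.7 CPM) lay well below.

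ITGAL, the alpha chain of LFA-1 on lymphocytes and other leukocytes, was at 35.6, 74.4 and 43.6 CPM in T or NK cells and at 43.5, 87.8 and 23.5 CPM in neutrophils. Replicate 2 was the highest animal in 8 of the 9 lineages, the exception being endothelial cells. The 5 leukocyte lineages other than plasma cells overlapped, so their order is not resolved. The log2 difference was 1.70 ± 0.20 in neutrophils and 1.21 ± 0.16 in T or NK cells (edgeR adjusted p = 9.6e-08 and 6.35e-07, higher in 3 of 3 animals). Which of the 2 lineages was highest changed under 7 of the 9 alternatives tried for levels.

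ITGB7 and ITGA4 form the gut-homing integrin of lymphocytes, and ITGA4 also pairs with ITGB1. ITGB7 was at 114, 192 and 96.7 CPM in dendritic cells, 82.6, 152 and 95.2 CPM in neutrophils, 61.3 to 98.1 CPM in B cells and 58.2 to 73.2 CPM in T or NK cells. Monocytes or macrophages were lower, at 39.9, 43.4 and 20.6 CPM, and did not overlap with any of these 4. ITGA4 was at 107, 117 and 108 CPM in dendritic cells and at 106, 108 and 78.1 CPM in T or NK cells, but at only 18.1 to 41.4 CPM in neutrophils. The log2 difference of ITGB7 was 2.21 ± 0.15 in dendritic cells and 2.27 ± 0.17 in neutrophils (edgeR adjusted p = 5.37e-12 and 2.6e-11). That of ITGA4 was 1.5 ± 0.19 in dendritic cells (edgeR adjusted p = 5.8e-07) and -0.44 ± 0.29 in neutrophils (edgeR adjusted p = 0.243), so the neutrophils, high in ITGB7, were not past the threshold for ITGA4. Against all other kept cells ITGA4 was lower in neutrophils (-0.71, edgeR adjusted p = 0.0317).

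ITGAE, the partner of ITGB7 on tissue-resident T cells that binds CDH1, did not follow ITGB7. It was at 73.1, 76.1 and 85.5 CPM in monocytes or macrophages, 58.7, 45.4 and 73.2 CPM in T or NK cells and 24.3 to 67.8 CPM in epithelial, endothelial and B cells. On plain CPM, lineages next to each other in the order overlapped, apart from plasma cells at 9.56 to 11.4 CPM, where that scale understates most genes. The log2 difference was 1.08 ± 0.12 in monocytes or macrophages (edgeR adjusted p = 3.28e-08) and 0.37 ± 0.13 in T or NK cells (edgeR adjusted p = 0.0225). In T or NK cells the sign turned with all other kept cells as the reference (log2 difference -0.13, edgeR adjusted p = 0.538). On that reference plasma cells were at -0.71 (edgeR adjusted p = 0.000834). In the RefSeq table (H.glaber_assembly_v1.0) the gene Haspin lies within Itgae, and reads from overlapping genes could not be separated here.

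ITGAD, the alpha-D partner of ITGB2, was at 18.8, 12.2 and 21.1 CPM in T or NK cells, above 6.10 to 11.4 CPM in dendritic cells and 3.21 to 6.66 CPM in monocytes or macrophages. Endothelial cells had 0 UMIs of it, so its contrast against the mean of the lineages depends on how 0 is treated. Against all other kept cells, the log2 difference was 2.47 ± 0.35 (SE) in T or NK cells (edgeR adjusted p = 0.000647, higher in 3 of 3 animals). Of the 362 UMIs in that lineage, 202 were in cluster 13, led by TNFRSF4, CD27, FOXP3 and IL2RA, where the level was 70.0, 65.7 and 60.5 CPM. The cytotoxic cluster 4 (GZMA, NKG7) followed at 20.6, 14.7 and 18.2 CPM. ITGAD and ITGAM are close paralogs, and how the counting treated reads that match both was not tested, so the ITGAD level is uncertain.

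ITGA2B, known as the platelet chain of the fibrinogen receptor, was present in every lineage and animal. Its levels ran from 18.1 CPM in neutrophils of replicate 2 to 60.2 CPM in epithelial cells of replicate 1. The platelet or megakaryocyte marker list summed to 0 to 7.50 CPM in every lineage and animal, with at least 1 of its 4 markers at 0 in 8 of the 9 lineages. The log2 difference of ITGA2B was 0.38 ± 0.11 in fibroblast or mural cells (edgeR adjusted p = 0.0061), and -0.49 ± 0.17 in neutrophils (edgeR adjusted p = 0.0246). Neither was past the threshold against all other kept cells (0.31 and -0.48, edgeR adjusted p = 0.0558 and 0.136). On that reference T or NK cells were past it (-0.45, edgeR adjusted p = 0.00426), and so were plasma cells (0.74, edgeR adjusted p = 0.000376). The plasma value comes after the scaling of the fit, since plain CPM was 19.4 to 22.5 there. Adjacent lineages in its order overlapped except T or NK cells and neutrophils.

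**Figure D2:**
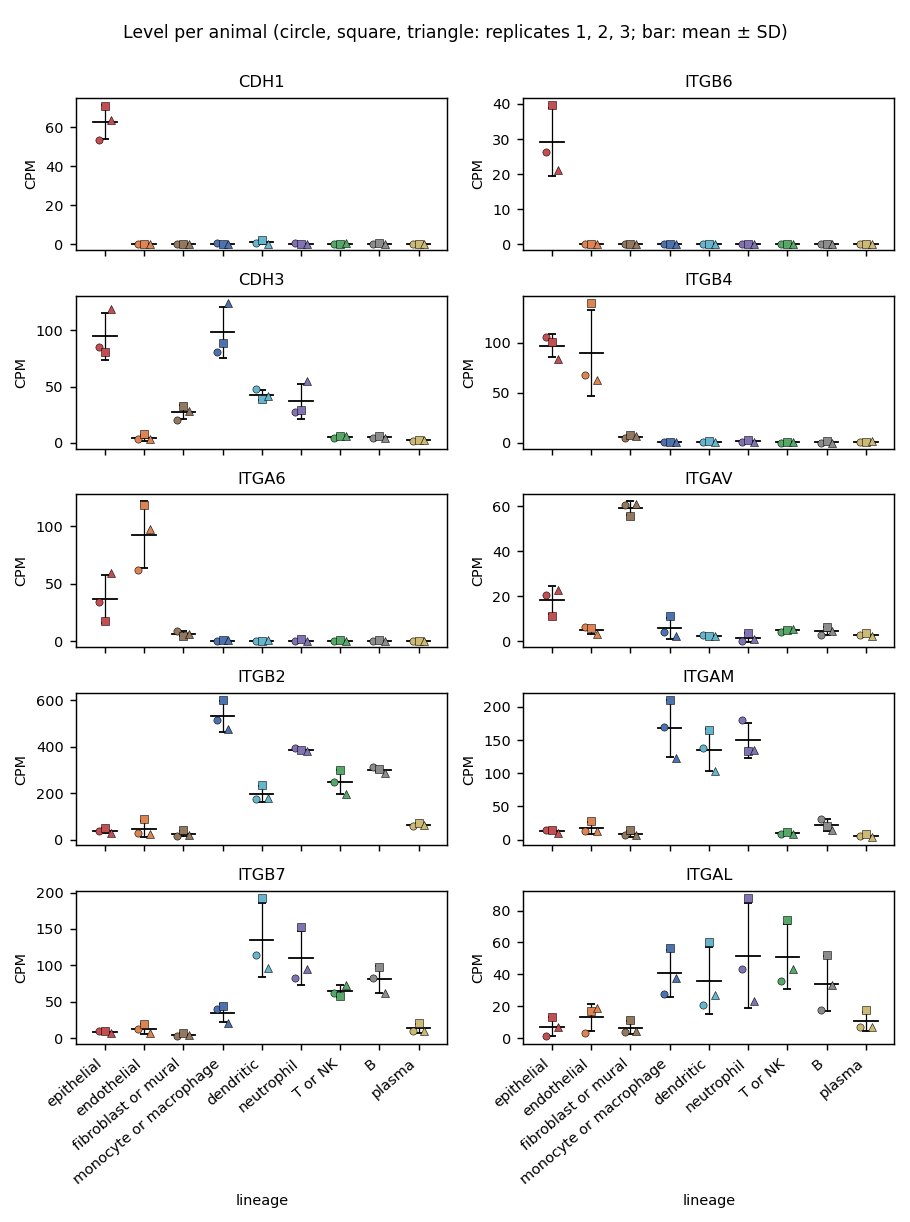
CPM of 10 genes (panels) in the 9 lineages (horizontal axis); each symbol is 1 animal (circle, square, triangle: replicates 1, 2, 3), and black bars give the mean ± SD of 3 animals. CDH1 and ITGB6 are near 0 outside epithelial cells, ITGB4 and ITGA6 stand in epithelial and endothelial cells, and ITGAL is highest in replicate 2 in most lineages.

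The laminin-binding chains ITGB4 and ITGA6 were shared by epithelial and endothelial cells. ITGB4 was at 106, 100 and 84.0 CPM in epithelial cells and at 67.8, 140 and 63.2 CPM in endothelial cells. These 2 lineages overlapped, while fibroblast or mural cells were at 4.38 to 8.01 CPM and the leukocyte lineages at or under 2.72 CPM. ITGA6 was at 61.6, 119 and 97.96 CPM in endothelial cells and at 33.9, 18 and 59.3 CPM in epithelial cells, with no overlap. The log2 difference of ITGB4 was 5.28 ± 0.18 in epithelial and 4.92 ± 0.26 in endothelial cells (edgeR adjusted p = 1.8e-18 and 2.73e-14). That of ITGA6 was 4.76 ± 0.34 and 6.07 ± 0.39 (edgeR adjusted p = 7.32e-12 and 1.55e-12). Across the 29 clusters the Pearson correlation of log2(CPM + 1) between ITGA6 and ITGB4 was 0.852, given as a description of clusters from the same 3 libraries.

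ITGA3, another laminin receptor chain, was at 29.3, 66.3 and 29.9 CPM in epithelial cells and at 21.6, 36.5 and 9.48 CPM in endothelial cells. Replicate 2 was the high animal in both, and the 2 lineages overlapped. Dendritic cells were at 15.3, 18.2 and 16.5 CPM, and the 5 lowest lineages on plain CPM were at or under 8.43 CPM. Plasma cells were among these 5, yet against all other kept cells their log2 difference was 1.12 (edgeR adjusted p = 0.000253). Against the other lineages, the log2 difference was 2.05 ± 0.17 in epithelial cells (edgeR adjusted p = 1.86e-10). It was 0.78 ± 0.19 in dendritic cells, and that sign turned with cells of at least 2000 UMIs (-0.44) and at the finer clustering (-0.37).

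The collagen receptor chain ITGA1 was highest in endothelial cells at 185, 220 and 130 CPM, above every other lineage in every animal. Fibroblast or mural cells came next at 48.9, 38.4 and 38.7 CPM. The log2 difference in endothelial cells was 2.73 ± 0.13 (edgeR adjusted p = 1.8e-15). In the RefSeq table the gene Pelo lies within Itga1. The other endothelial chains were ITGA9 (27.7, 24.3 and 19.0 CPM), known from lymphatic valves, and the fibronectin receptor chain ITGA5 (89.3, 117 and 107 CPM). ITGA9 was at 39.5, 71.1 and 8.22 CPM in the smaller endothelial cluster, led by MMRN1 and STAB1, and at 17.4, 11.6 and 25.7 CPM in the larger one, led by FCN3 and RAMP2. The 2 clusters overlapped for ITGA9 through replicate 3. They held only 17 and 14 UMIs of it in all. The exact Poisson 95% intervals were 23.9 to 65.7 and 8.65 to 26.5 CPM (counting error only), so their order is not resolved.

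ITGA5 was shared by endothelial cells, fibroblast or mural cells (89.7, 51.3 and 61.2 CPM), monocytes or macrophages (58.6, 79.7 and 59.1 CPM) and neutrophils (30.3, 58.9 and 41.4 CPM). Epithelial cells were at 15.7, 16.1 and 16.6 CPM and T or NK cells at 4.73, 9.20 and 4.94 CPM. The log2 difference was 1.82 ± 0.22 in endothelial, 1.39 ± 0.15 in fibroblast or mural and 1.54 ± 0.14 in monocyte or macrophage cells (edgeR adjusted p = 1.78e-07, 1.04e-08 and 1.54e-09). In T or NK cells it was -2.47 ± 0.22 (edgeR adjusted p = 8.74e-10). The fibroblast or mural value was 0.51 against all other kept cells (edgeR adjusted p = 0.179). In endothelial cells of replicate 3 the 3 plasma cell markers summed to 39830 CPM against 2609 and 2761 CPM in the others, and the 10 fibroblast markers to 1375 CPM against 105 and 396 CPM. Their part in the endothelial values of that animal was not tested.

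Among the alpha-V group, ITGAV was at 60.7, 55.6 and 61.0 CPM in fibroblast or mural cells, at 20.7, 11.4 and 23.0 CPM in epithelial cells and at or under 11.04 CPM in the other 7 lineages. Neither of these steps overlapped. Its partner ITGB5 was spread over endothelial (18.2 to 27.7 CPM), epithelial (18.7 to 24.6 CPM) and fibroblast or mural cells (13.2 to 24.2 CPM), which overlapped. The log2 difference of ITGAV was 3.50 ± 0.23 in fibroblast or mural and 1.72 ± 0.34 in epithelial cells (edgeR adjusted p = 1.01e-12 and 0.000146). Against the sum of all other kept cells, the epithelial value was -0.18 (edgeR adjusted p = 0.636).

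ITGB6, whose pair with alpha-V activates latent TGF-beta in epithelium, was at 26.3, 39.8 and 21.2 CPM in epithelial cells. It had at most 6 UMIs, summed over animals, in any other lineage, and 0 in 4 of them. In all other kept cells together it was at 0.105, 0.0881 and 0.0132 CPM. The log2 difference from these was 8.48. Passing the count filter of that fit rests on the epithelial cells, so the size of the difference is imprecise and no p is given. All 3 epithelial clusters carried it: 38.6 CPM in the alveolar cluster 20 (SFTPC, AGER), 28.1 CPM in the ciliated cluster 24 (TPPP3, CAPS) and 19.8 CPM in cluster 19 (SCGB3A2, KRT8).

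ITGB8, the other TGF-beta activating chain, was at 5.57, 3.79 and 2.62 CPM in epithelial and 1.76, 2.28 and 6.06 CPM in T or NK cells. Of the 64 UMIs in T or NK cells, 42 were in cluster 13, the FOXP3 and IL2RA cluster that also held most of the lineage's ITGAD, at 11, 12.9 and 16.5 CPM. The ciliated cluster had 14.1 CPM from 12 UMIs (exact Poisson 95% interval 7.27 to 24.6, counting error only). Against all other kept cells the log2 difference was 2.16 ± 0.35 in T or NK and 2.20 ± 0.58 in epithelial cells (edgeR adjusted p = 0.00135 and 0.0129).

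The fibroblast or mural lineage had 2 further alpha chains. ITGA11, a collagen receptor chain of fibroblasts, was at 12.9, 7.08 and 13.1 CPM, with at most 3.16 CPM in any animal elsewhere, and the log2 difference was 4.24 ± 0.29 (edgeR adjusted p = 1.77e-12). ITGA7, a laminin receptor chain of muscle, was at 4.38, 2.95 and 7.36 CPM there and at 1.39, 1.65 and 0.949 CPM in monocytes or macrophages. Against all other kept cells its log2 difference in fibroblast or mural cells was 2.04 ± 0.68 (SE), not past the threshold (edgeR adjusted p = 0.0568). Epithelial, endothelial and B cells had 0 UMIs of ITGA7. In the RefSeq table Bloc1s1 overlaps Itga7.

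CDH1 was at 53.6, 71.1 and 63.9 CPM in epithelial cells. The highest value in any animal elsewhere was 2.37 CPM, in dendritic cells of replicate 2, and endothelial cells had 0 UMIs (a count of 0 there allows up to 2.31 CPM). Against all other kept cells the log2 difference was 7.11 ± 0.21 (edgeR adjusted p = 9.94e-09). All 3 epithelial clusters carried it, at 73.5 CPM in cluster 20, 65.7 CPM in cluster 24 and 56.2 CPM in cluster 19, with overlapping counting intervals. Over the 29 clusters the gene whose pattern was most like CDH1 was ITGB6 (Pearson correlation 0.938), as a description.

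CDH3, the P-cadherin of basal epithelium, was the other abundant cadherin, and it was not an epithelial gene alone. Monocytes or macrophages were at 81.0, 89.0 and 124 CPM and epithelial cells at 85.0, 80.5 and 119 CPM. These 2 lineages overlapped, and replicate 3 was the highest in both. Dendritic cells (38.8 to 47.6 CPM), neutrophils (27.1 to 54.9 CPM) and fibroblast or mural cells (20.6 to 32.8 CPM) followed, while T or NK, B, endothelial and plasma cells were at or under 7.59 CPM. The log2 difference was 2.74 ± 0.12 in monocytes or macrophages and 2.43 ± 0.13 in epithelial cells (edgeR adjusted p = 2.82e-16 and 2.63e-14). The differences against all other kept cells were 1.40 and 0.53 (edgeR adjusted p = 0.00161 and 0.0203). In the same macrophage sums CDH1 was at 0.557, 0.449 and 0.316 CPM. The 7 epithelial markers summed there to 22.7, 11.5 and 34.8 CPM, against 13190, 3698 and 8975 CPM in epithelial cells.

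Within the macrophage lineage CDH3 was divided by cluster. Cluster 6, led by TBXAS1, CYP7A1 and GPNMB, was at 151, 201 and 142 CPM, and the dividing cluster 15 (UBE2C, TOP2A) at 102, 163 and 134 CPM. Cluster 11 (C1QB, C1QC) was at 56.4, 50.1 and 93.5 CPM and the interferon-gene cluster 2 (IDO1, CXCL11) at 42.6, 42.3 and 53.3 CPM. Cluster 12 (CFD, SORL1, VCAN) was at 1.47, 8.001 and 8.69 CPM, so the 2 highest clusters did not overlap with the other 3. The unnamed cluster 8 (RETN, MMP7, MMP8), whose marker score was highest for macrophages but which met no lineage's naming rule, was at 148, 206 and 176 CPM. Epithelial cells divided in the same way: cluster 19 was at 121, 234 and 159 CPM, and clusters 20 and 24 at 17.6 to 40.7 CPM.

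The CDH3 level of the macrophage lineage depended on which clusters bore the name. With a mitochondrial limit of 10% the lineage lost nearly all of clusters 6 and 15 and most of cluster 11 (603 of its 832 cells under that limit) to the unnamed class, with 187 of 1658 cells of cluster 2. Its mean fell to 24.7 CPM from 98.1 CPM, and the difference from neutrophils turned from 1.26 to -0.73. The cells of cluster 6 under that limit (787 of 1359) were themselves at 145 CPM, those of cluster 15 (386 of 594) at 128 CPM and those of cluster 11 at 50.8 CPM. With the unnamed macrophage-scoring clusters joined to the lineage, an alternative added after the data were seen, the log2 difference of CDH3 against the other lineages was 2.89.

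**Figure D3:**
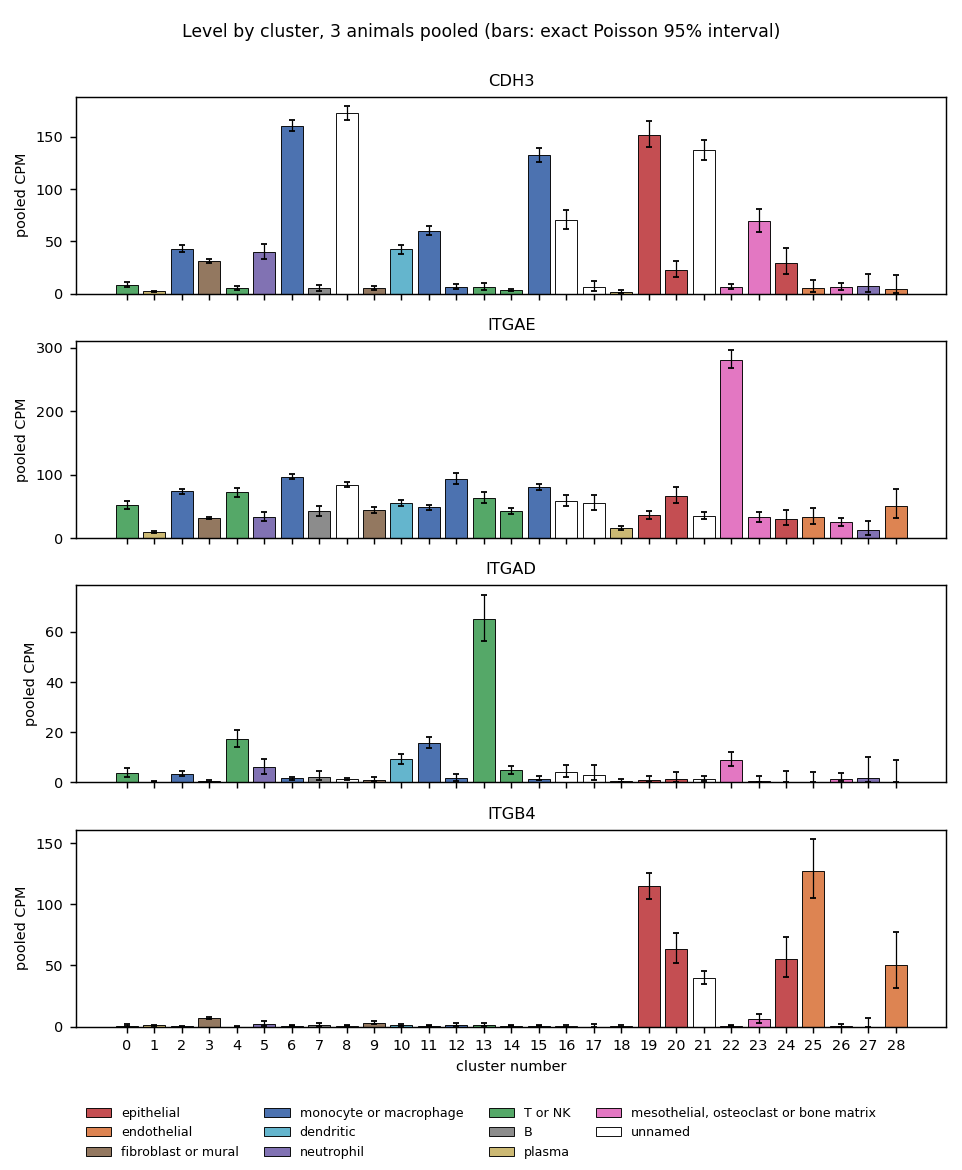
Pooled CPM of CDH3, ITGAE, ITGAD and ITGB4 (panels) in each of the 29 clusters (horizontal axis), with bar colours for lineages and whiskers for exact Poisson 95% intervals, which cover counting error only. CDH3 is high in macrophage clusters 6 and 15, unnamed cluster 8, epithelial cluster 19 and unnamed cluster 21, ITGAD stands in cluster 13, and ITGAE in the osteoclast-like cluster 22.

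The clusters with few cells in some animals lay outside the tests and are given as levels. The osteoclast-like cluster 22, with 192 of its 202 cells in replicate 2, had the highest ITGAE (282 CPM) and ITGAV (124 CPM) of all clusters, against 96.4 and 67.1 CPM in the next one. The bone matrix-like cluster 26 (SPP1, DMP1, IBSP), with 121 of 122 cells in replicate 2, had the highest ITGB5 (89.4 CPM), ITGA11 (19.9 CPM) and ITGA10 (5.59 CPM, from 16 of its 27 UMIs in all kept cells). The unnamed cluster 21, led by SERPINE2, SPINK5 and KRT14, came with 218 of 223 cells from replicate 2. It held CDH3 at 137 CPM, ITGA2B at 102 CPM, ITGB5 at 41.6 CPM and ITGA7 at 16.2 CPM. With nearly all cells from 1 animal, cluster and animal cannot be told apart there. The mesothelial-like cluster 23 had the highest CDH13 (28.5 CPM from 62 UMIs).

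The remaining cadherins were sparse. CDH13, the truncated T-cadherin known from vessels, had 101 UMIs in fibroblast or mural cells (0.845, 2.87 and 3.91 CPM) and 4 in endothelial cells (0, 3.04 and 6.32 CPM). CDH7 had 112 of its 134 UMIs in fibroblast or mural cells (2.48, 2.78 and 2.45 CPM). CDH17 had 8 UMIs in dendritic cells and CDH19 had 12 in fibroblast or mural cells. CDH16 had 15 UMIs in all, CDH24 had 33 and CDH22 had 1. CDH7, CDH16, CDH17, CDH19, CDH22, CDH24 and ITGA10 did not pass the low count filter for the lineage tests, which leaves 23 genes tested.

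Of these 23 genes, 7 (CDH1, CDH13, ITGA7, ITGA9, ITGAD, ITGB6 and ITGB8) had 0 UMIs in at least 1 lineage, and passing the filter rests on the lineages where they are present. In epithelial cells 11 of the 23 were called higher and 6 lower, beside 28.5% and 21.2% of all features tested (49.7% in either direction). In endothelial cells 8 were higher and 6 lower (background 17.5% and 14.8%, 32.3% in all), and in fibroblast or mural cells 12 and 7 (32.7% and 23.2%, 55.9% in all). Monocytes or macrophages had 9 higher and 5 lower (27.5% and 20.2%, 47.6% in all), dendritic cells 9 and 5 (20.5% and 17.7%, 38.2% in all) and neutrophils 7 and 6 (20.4% and 18.3%, 38.7% in all). T or NK cells had 7 higher and 9 lower (25.7% and 23.4%, 49.1% in all), and B cells 3 and 3 (16.5% and 16.0%, 32.5% in all). Over the 16 genes with UMIs in every lineage, 7 were higher and 6 lower in epithelial cells. The same counts were 6 and 6 in endothelial, 9 and 7 in fibroblast or mural, and 7 and 5 in monocyte or macrophage cells. They were 8 and 5 in dendritic cells, 6 and 5 in neutrophils, 5 and 9 in T or NK cells and 3 and 3 in B cells. The shares above are over all features tested, also those with 0 UMIs in some lineages, so they are not matched to these 16 genes. The B cell calls were ITGB7 (log2 difference 1.43), ITGB2 (1.16) and ITGA4 (0.94) higher, and ITGB4 (-2.11), CDH3 (-2.08) and ITGA5 (-1.11) lower. ITGB2 in B cells was at 0.10 against all other kept cells (edgeR adjusted p = 0.594).

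Plasma cells had 9 genes higher and 4 lower, beside 24.3% and 20.9% of all features (45.2% in all), but these calls rest on the scaling. The 10 most abundant features held 63.8% to 74.9% of plasma cell UMIs, against at most 27.9% in the other lineages, so a plain CPM understates other genes there. ITGA4 was at 26.1, 22.4 and 37.2 CPM in plasma cells and at 82.8, 81.6 and 51.8 CPM in B cells. On the TMM scale its log2 difference against the other lineages was 1.36 ± 0.20 (edgeR adjusted p = 2.63e-06). In the direct contrast of plasma with B cells, 3 genes were higher (ITGB5, ITGA2B and ITGA1) and 1 was lower (ITGB7, by 0.89 on the log2 scale), beside 17.0% and 13.8% of all features (30.7% in all). Without replicate 1 there was 1 call in place of 4, and without replicate 2 or replicate 3 there were 2. Against the other lineages, leaving out replicate 3 gave 6 plasma cell calls in place of 13.

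Epithelial cells were compared directly with fibroblast or mural cells, the 2 tissue-forming lineages. Of 23 genes 8 were higher in epithelial cells and 6 lower, beside 18.2% and 17.0% of all features (35.2% in all). CDH1 (log2 difference 8.38 ± 0.39), ITGB6 (8.02 ± 0.54), ITGB4 (3.99 ± 0.24), ITGA3 (2.60 ± 0.23), ITGA6 (2.47 ± 0.36), ITGB8 (2.30 ± 0.63), CDH3 (1.79 ± 0.17) and ITGB7 (0.98 ± 0.33) were higher. ITGA7, CDH13, ITGA11 (-3.94 ± 0.56), ITGA5 (-2.09 ± 0.25), ITGAV (-1.58 ± 0.34) and ITGA4 (-1.08 ± 0.36) were lower. The CDH1 and ITGB6 values rest on only 7 and 4 UMIs in fibroblast or mural cells, so their size is imprecise. ITGA7 had 0 UMIs in epithelial cells and was at least 10.5-fold lower there, against a floor of 3 counts over the group. CDH13 had 1 UMI in epithelial cells against 101, a ratio of pooled levels of 14.9 (exact 95% counting interval 2.62 to 595). With each cell thinned to 2000 UMIs there were 9 calls in place of 14.

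Monocytes or macrophages against neutrophils gave 5 genes higher and 1 lower, beside 19.4% and 15.9% of all features (35.3% in all). ITGB5 (244 UMIs against 2, ratio of pooled levels 6.54, exact 95% counting interval 1.79 to 54.3), CDH3 (log2 difference 1.26 ± 0.19), ITGA4 (1.19 ± 0.32), ITGAE (1.17 ± 0.21) and ITGA1 (0.95 ± 0.23) were higher, and ITGB7 was lower (-1.86 ± 0.22, edgeR adjusted p = 4.79e-07). ITGAM and ITGB2 were not past the threshold on this scale, although plain CPM of ITGB2 did not overlap between these lineages. Neutrophils were shallow, with median UMIs per cell of 1378 to 2873 against 6626 to 11495.

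The fibroblast or mural lineage held 2 clusters. Cluster 3 (1713 cells) was led by MMP3, IGF2 and COL1A1, and cluster 9 (1243 cells) by MGP, CCL19 and SPARCL1. ITGA6 was at 10.1, 6.21 and 7.50 CPM in the IGF2 and MMP3 cells and at 0, 0 and 0.380 CPM in the others. CDH3 was at 22.8, 42.0 and 34.7 CPM against 6.41, 5.67 and 4.18 CPM, and ITGAV at 65.9, 65.1 and 70.8 CPM against 26.4, 27.4 and 22.0 CPM. ITGA11 was at 14.8, 9.03 and 15.8 CPM against 0, 1.33 and 2.66 CPM. CDH7 was at 2.80, 3.61 and 2.98 CPM against 0.401, 0.334 and 0.380 CPM. None of these 5 genes overlapped between the groups.

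Of 21 genes tested between the 2 groups, 8 were higher in the IGF2 and MMP3 cells and 8 lower, beside 22.0% and 21.7% of all features (43.6% in all). The higher ones were ITGA6 (edgeR adjusted p = 0.000233), CDH7 (edgeR adjusted p = 0.00371), ITGA11 (log2 difference 3.13 ± 0.48), CDH3 (2.47 ± 0.24, edgeR adjusted p = 8.35e-05), ITGA4 (1.41 ± 0.23), ITGA7 (1.31 ± 0.45), ITGAV (1.29 ± 0.13) and ITGB4 (1.13 ± 0.35). ITGA6 had 299 UMIs against 1, a ratio of pooled levels of 68.1 (exact 95% counting interval 12.1 to 2698). CDH7 had 109 UMIs against 3, a ratio of 8.27 (2.76 to 40.7). The lower ones were ITGB8 (-2.22 ± 0.61), CDH13 (-2.15 ± 0.50), ITGAM (-1.05 ± 0.26), ITGAL (-1.05 ± 0.25), ITGB7 (-1.02 ± 0.32), ITGB2 (-0.98 ± 0.14), ITGA1 (-0.64 ± 0.16) and ITGAE (-0.64 ± 0.13). ITGA2B, ITGA3, ITGA5, ITGA9 and ITGB5 were not past the threshold. The fit without the replicate block made 8 calls in place of 16.

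**Figure D4:**
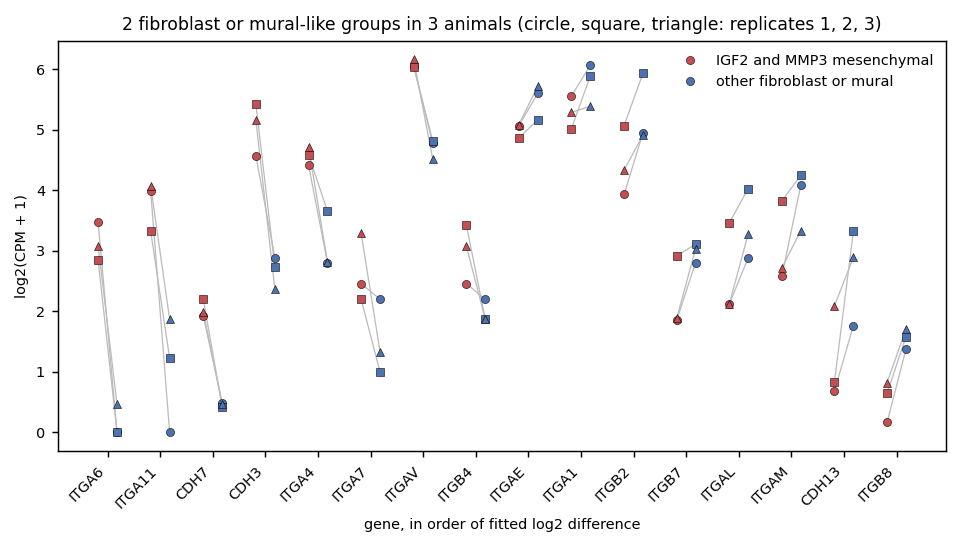
Level, as log2(CPM + 1), of the 16 genes that differed between the IGF2 and MMP3 mesenchymal cells (red, left of each pair) and the other fibroblast or mural cells (blue, right), with 1 line per animal (circle, square, triangle: replicates 1, 2, 3). All lines for ITGA6 to ITGB4 slope down to the right and all lines for ITGAE to ITGB8 slope up.

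CDH1 was not part of this difference, with 7 UMIs (0.122, 0.226 and 0.288 CPM) in the IGF2 and MMP3 cells and 0 UMIs in the others, under a floor that a fold would need. Other epithelial genes were present: EPCAM was at 33.9, 47.1 and 20.5 CPM against 1.60, 1.67 and 3.42 CPM, and KRT14 at 412, 268 and 678 CPM against 9.61, 28.7 and 8.35 CPM. Over all 4 basal markers the sum was 403 to 738 CPM against 9.61 to 31.7 CPM, with 2 of the 4 at 0 in the other cells, and over all 7 epithelial markers 84.7 to 91.9 CPM against 12.7 to 31.9 CPM. For mesothelial cells, the cluster richest in CDH13, the marker sum moved with CDH13 and ITGB8. The 4 mesothelial markers summed to 7.45 to 13.6 CPM in the IGF2 and MMP3 cells, with 1 at 0, against 796 to 1911 CPM in the others. At the finer clustering given below, 1 of the 4, PRG4, was also a leading gene of 404 other fibroblasts (CCL19, DCN). These had CDH13 at 5.03, 20.9 and 13.1 CPM, against 0, 4.21 and 3.34 CPM in the remaining 839. The mesothelial markers are not given singly. Beside the lower leukocyte chains ITGB2, ITGAM, ITGAL and ITGB7, the T or NK marker list summed to 91.6 to 116 CPM in the IGF2 and MMP3 cells against 142 to 246 CPM, and the plasma list to 1836 to 4884 CPM against 6672 to 9934 CPM. The monocyte or macrophage list, of which Apoe made up most, summed to 11240 to 14840 CPM against 13360 to 26170 CPM. The neutrophil list went the other way, at 69.9 to 302 CPM against 14.0 to 63.7 CPM. The 5 bone matrix markers summed to 104, 2472 and 286 CPM in the IGF2 and MMP3 cells against 10.4, 673 and 3.04 CPM, with 1 at 0 in the others. In replicate 2 this list was high in other lineages too. It was at 769 CPM in T or NK cells (11.2 and 3.14 CPM in replicates 1 and 3) and at 1605 CPM in neutrophils. Median UMIs per cell were 15583 to 20418 in the IGF2 and MMP3 cells against 4915 to 5702 in the other fibroblast or mural cells. All 6 dissociation stress genes tested were lower in the IGF2 and MMP3 cells (Fos at 424 to 570 CPM against 1093 to 1715 CPM). The part of these markers and genes in the differences was not tested. With each cell thinned to 2000 UMIs there were 8 calls in place of 16.

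At the finer clustering (resolution 2) the IGF2 and MMP3 cells divided, and CDH3, CDH7 and ITGB4 were higher on 1 side in every animal. The values of the finer clusters are a description made after that test. Of the 1713 cells, 114 joined the bone matrix-like finer cluster (SPP1, DMP1, IBSP; 219 of its 236 cells in replicate 2). The larger finer cluster (1184 cells, led by IGFBP5, PTGER3 and IGF2, with LAMB3 among its 15 leading genes) had CDH3 at 37.1, 58.5 and 37.7 CPM, CDH7 at 4.79, 4.85 and 3.47 CPM and ITGB4 at 8.72, 14.4 and 8.74 CPM. The smaller one (411 cells, led by MMP3, IGFBP2 and SFRP4) had CDH3 at 8.92, 38.4 and 10.9 CPM, CDH7 at 0.743, 0 and 0 CPM and ITGB4 at 0.372, 5.49 and 0 CPM. Only 10 of its cells were from replicate 2, and through that animal CDH3 overlapped between the 2 finer clusters, while CDH7 and ITGB4 did not. ITGA6, ITGA11 and ITGAV overlapped as well. The test at this resolution took only the smaller cluster as IGF2 and MMP3 cells and put the larger with the others, and the signs of CDH3 (-1.31), CDH7 (-2.52), ITGB4 (-3.97), ITGA6 (-0.18) and ITGAV (-0.15) turned.

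**Figure D5:**
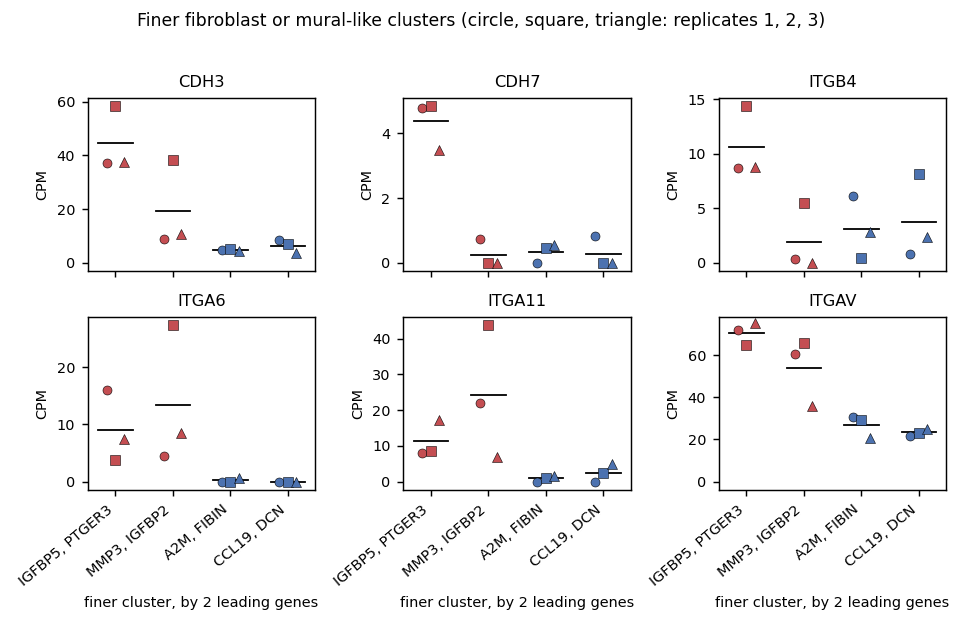
CPM of 6 genes (panels) in the 4 fibroblast or mural-like clusters found at resolution 2 (horizontal axis, named by 2 leading genes); red symbols are cells of the main IGF2 and MMP3 cluster, blue symbols the other fibroblasts, black bars the mean, and circle, square and triangle replicates 1, 2 and 3. CDH7 stands in the IGFBP5 and PTGER3 cluster, and ITGAV is higher in both red clusters than in both blue ones in each animal.

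The ligands and partners of these receptors followed the same lineages in part. Of 18 integrin ligand genes tested, 13 were higher and 1 lower in fibroblast or mural cells (32.7% and 23.2% of all features), with a median log2 difference of 2.64 beside 0.06 over all features, led by COL1A1, COL1A2 and TNC. In epithelial cells 9 were higher and 5 lower (28.5% and 21.2% of all features). The higher ones included 2 laminin chains, laminin being a ligand of alpha-6/beta-4: LAMA3 was at 82.0, 35.1 and 123 CPM and LAMB3 at 343, 232 and 527 CPM. Fibroblast or mural cells had LAMB3 at 93.5, 167 and 136 CPM, but LAMA3 at only 0.581, 0.422 and 1.07 CPM. Within that lineage LAMB3 was at 107, 220 and 168 CPM in the IGF2 and MMP3 cells and at 6.01, 12.0 and 10.6 CPM in the others (log2 difference 3.98 ± 0.14, edgeR adjusted p = 5.38e-07).

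Of 7 measured catenins and other adherens junction genes, 6 were higher in epithelial cells, 6 in endothelial cells and 6 in fibroblast or mural cells, beside 28.5%, 17.5% and 32.7% of all features. PLEKHA7 among them had 0 UMIs in dendritic, B and plasma cells. The cadherin linker JUP was at 123, 102 and 155 CPM in epithelial and at 49.4, 46.8 and 47.4 CPM in fibroblast or mural cells (log2 difference 1.39, edgeR adjusted p = 4.6e-08). Of 8 desmosomal and cadherin-related genes tested, 7 were higher in epithelial cells, led by PKP3, DSG2 and DSP, and 7 in fibroblast or mural cells, beside 28.5% and 32.7% of all features. PKP3, DSC2, DSG1 and DSG3 had 0 UMIs in endothelial cells and PKP2 had 0 in neutrophils. Their passing the count filter rests on the lineages where they are present, which limits what these counts show. Within the fibroblast or mural lineage 6 of 7 tested were higher in the IGF2 and MMP3 cells than in the others, beside 22.0% of all features. There the desmosomal cadherin DSG2 was at 17.6, 16.6 and 21.8 CPM against 0, 0 and 0.380 CPM, and DSC2 at 20.4, 6.66 and 19.99 CPM against 0.401, 0.334 and 0.380 CPM. The others had only 0 UMIs of DSG3, 1 of DSG2 and 3 of DSC2, so the same limit holds for this comparison. Of 23 integrin adaptors and activators, 11 were higher and 8 lower in fibroblast or mural cells (32.7% and 23.2% of all features) and 11 and 2 in neutrophils (20.4% and 18.3%), with medians of 0.06 and 0.35 beside 0.06 and -0.16 over all features. PARVA among them had 0 UMIs in B cells.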

How the data were processed

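Tumours of 3 animals were measured with 10x 3' single-cell RNA-seq, 1 library per animal, and the labels give the replicates as separate animals. The authors deposited raw UMI counts per gene and barcode, made with Cell Ranger 7.1.0 per the file headers and 8.0.0 per the submitters' processing notes. Genome build and annotation: not given in the sources used here. Between 36.8% and 37.8% of UMIs fall on features without a symbol.

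From these counts, cells with at least 1000 UMIs, 500 genes and under 20% mitochondrial UMIs (13 genes) were kept. Scrublet's automatic threshold called 1 cell and was not used, and a score limit of 0.2 took out 445 of 25044 cells. Clusters (scanpy 1.11.5, Leiden resolution 1) came from 2000 variable genes, 30 components and 20 neighbours, with the integrins and cadherins left out, and were named from markers. Counts were summed per animal and lineage (at least 10 cells) and tested by quasi-likelihood in edgeR 4.0.16, after filterByExpr and TMM scaling, with Benjamini-Hochberg adjustment over all features tested and a threshold of 0.05. The animal was a block, since all lineages of a replicate come from 1 animal. The spread of 3 animals and the UMIs of small lineages set the precision, and intervals cover counting error only. The code was tested on simulated data. The genes and lists were chosen with earlier results of these data known. Named genes are the up to 5 with the largest positive differences per lineage and a list of well-known chains, every gene called in a comparison of 2 groups, and the 3 with the largest change per pathway list. Alternatives were 2 other normalizations or tools (RLE, DESeq2 1.42.0), other filters, clusterings, thinning, references and leaving out animals. The values of 1 pathway-list gene are not reported here.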

Additional observations from a re-analysis of the deposited data

How the results depend on the processing

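Of 149 log2 differences of single genes followed over 16 alternatives, none turned its sign under 12 of them, including RLE normalization, DESeq2 and the fits without 1 animal. Without the replicate block (no pairing by animal) 24 of 148 were no longer past the threshold, and the IGF2 and MMP3 comparison made 8 calls in place of 16. Leaving out 1 animal gave 8 to 13 calls in dendritic cells (main 14), 8 to 9 in neutrophils (13), 6 to 11 in plasma cells (13) and 1 to 2 for plasma against B cells (4). With at least 2000 UMIs per cell there were 4 calls in dendritic cells, 8 in neutrophils and 2 for plasma against B cells. With cells thinned to 2000 UMIs there were 11 in fibroblast or mural cells (19), 7 in neutrophils, 4 in plasma cells, 9 for epithelial against fibroblast or mural cells (14), 1 for plasma against B cells and 8 in the IGF2 and MMP3 comparison. Clusters and tests from separate UMIs gave 7 in plasma cells and 1 for plasma against B cells, and no value for dendritic cells. Against all other kept cells there were 11 in B cells (6) and 20 in plasma cells. On that reference 16.2% of all features were called higher and 24.8% lower in B cells, and 21.6% and 29.3% in plasma cells. For the other alternatives these shares are not given. At resolution 2 there were 9 in dendritic cells and 5 in the IGF2 and MMP3 comparison.

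Signs turned at resolution 2 in the IGF2 and MMP3 comparison for CDH3 (-1.31), CDH7 (-2.52), ITGB4 (-3.97), ITGA6 (-0.18), ITGAV (-0.15), CDH13 (0.42), ITGA1 (0.074) and ITGB7 (0.27), where the groups hold other cells by construction. In dendritic cells they turned there for ITGA3 (-0.37) and ITGAL (-0.004), and with at least 2000 UMIs for CDH3 (-0.39), ITGA3 (-0.44) and ITGB2 (-0.78). Against all other kept cells, a reference weighted by UMIs, they turned in T or NK cells for ITGAE (-0.13) and ITGB2 (-0.28) and in dendritic cells for CDH3 (-0.46), ITGAE (-0.12) and ITGB2 (-0.53). They also turned there for ITGAV in epithelial cells (-0.18), CDH3 (-1.52) and ITGB4 (-0.25) in fibroblast or mural cells, CDH3 in neutrophils (-0.41), and ITGA11 (-0.47), ITGB2 (-0.37) and ITGB5 (-0.39) in plasma cells. At a mitochondrial limit of 10% CDH3 turned for macrophages against neutrophils (-0.73), with most cells of clusters 6, 11 and 15 unnamed. For the turns whose construction is not given here, the cause was not tested. Endothelial sums of 45 to 101 cells limit what could be seen there.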
